A study of Homo sapiens with 6 samples.

Results

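Under combined ATR inhibition and low-dose aphidicolin, some of the enriched break regions on chromosomes 2 to 22 lay close to another such region, and these clustered regions are described here. A region of the ATRi+APH list was kept when its summit lay on chromosomes 2 to 22, at least 100 kb from both chromosome ends and over 2 Mb outside the centromeric bands of hg19. It was a clustered region when the nearest other kept summit on the same chromosome was at most 50 kb away. The list held 1133 regions, of which 877 lay on chromosomes 2 to 22 and 811 were kept. Of these, 269 were clustered (33.2%) and 542 had no kept neighbour within 50 kb and are called solitary. Neighbours at most 50 kb apart were joined into 118 runs. The positions that chose the regions come from the list itself, so distances, spans and run sizes are given as descriptions, with no test. Fold, width and reads come from the same list and are descriptions too.

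The cells were MDA-MB-231, an established human triple-negative breast cancer line. They received either DMSO, or ATRi+APH, that is 0.5 µM of the ATR inhibitor VE-822 with 0.2 µM of the DNA polymerase inhibitor aphidicolin, each for 9 h. Break ends were captured by BrITL, in which a biotin-carrying chain terminator is added to DNA ends in permeabilised cells and the labelled fragments are pulled down and sequenced, with 2 pull-down libraries and 1 input library per condition. Each condition has 1 list called on its pooled pull-down libraries. The values therefore carry no spread over replicates, no difference between conditions or kinds of region was tested, and 1 cell line stands behind all of them.

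ATR is the kinase that protects stalled replication forks and holds back new origin firing when DNA synthesis slows. Aphidicolin slows the replicative polymerases, and with ATR inhibited a stalled fork can collapse into a broken DNA end. Breaks that recur at the same place in many cells appear as enriched regions in a pull-down of DNA ends, and the study examined where in the genome they lie.

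The distances inside the runs fell into separate ranges. The 118 runs held 151 gaps between neighbouring summits, and 105 of these were at most 5 kb, with a median of 1.17 kb (range 247 to 4097 bp). A further 46 gaps lay between 5.27 and 48.1 kb, with a median of 26.0 kb. Between 4.10 and 10.8 kb there were only 2 gaps, of 5.27 and 9.84 kb. A limit of 5 kb, chosen after these distances were seen, was therefore used to describe the runs. Compact runs have only gaps of at most 5 kb, spaced runs only longer gaps, and mixed runs both.

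**Figure D1:**
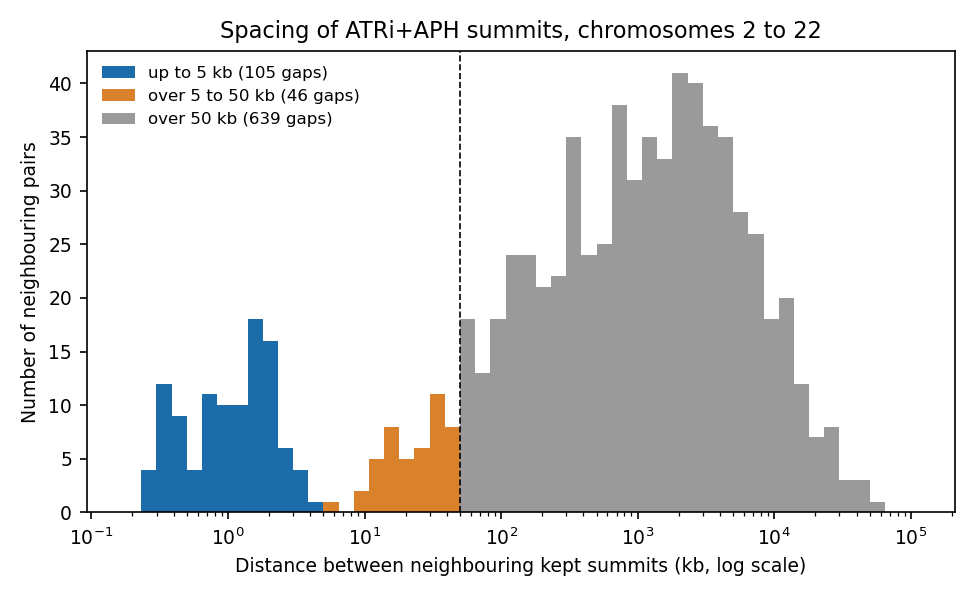
Number of neighbouring pairs of kept ATRi+APH summits (y axis) by their distance in kb (x axis, log scale), coloured by distance, with the 50 kb limit as a dashed line. The gaps of at most 5 kb stand apart from those over 5 kb, with 2 gaps between 4.10 and 10.8 kb, whereas the gaps from 10.8 kb upwards continue across the 50 kb limit.

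Most runs were compact. There were 77 compact runs with 172 clustered regions (63.9% of the 269, 95% exact Clopper-Pearson interval 57.9 to 69.7), 31 spaced runs with 67 regions (24.9%) and 10 mixed runs with 30 regions (11.2%). Such intervals cover counting error only and treat neighbouring regions as independent, which they are not. Runs of 2 regions were the most frequent, 88 of 118, followed by 28 runs of 3 regions, 1 of 4 and 1 of 5. All 10 mixed runs held 3 regions, with 1 short and 1 long gap.

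At the 50 kb limit, 3 regions on each side show what it separated. Just inside lay a pair at 15q25.1 (chromosome 15, summits 80938606 and 80986751), 48.1 kb apart, both with a fold of 4.17, and a region at 16q11.2 (chromosome 16, summit 46823582, fold 4.95) 47.1 kb from its neighbour. Just outside lay a pair at 16q24.2 (chromosome 16, summits 88448572 and 88498760), 50.2 kb apart with folds of 4.51 and 5.07, and a region at 18p11.22 (chromosome 18, summit 10782767, fold 4.17) 53.3 kb from its neighbour. The fold is the authors' ratio of pull-down pileup to local background, with 1 added to each, so it is not a plain multiple of the background. Positions are in hg19, counted from 1.

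The single run of 5 regions lay at 2q34 and was compact. It ran from 209040525 to 209043268 on chromosome 2, a stretch of 2744 bp of which its regions covered 1783 bp (65.0%). From left to right the folds were 5.04, 6.06, 4.17, 4.46 and 4.32, and the reads at the summits 33, 40, 27, 29 and 28. Counting error is wide at such depths: the exact 95% Poisson interval was 28.6 to 54.5 for the 40 reads of the tallest region and 17.8 to 39.3 for the 27 reads of its right-hand neighbour. The intervals overlap, which neither separates the regions of this run in height nor shows that they are equal. The local background was at the genome level, 1.00 times, at all 5, and the nearest DMSO region lay 14637 kb or more away.

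The single run of 4 regions, at 9q13 (chromosome 9, 67338991 to 67340842, 1852 bp), had another profile. It is described as the next longest and was chosen after its values were seen. Its folds from left to right were 3.50, 3.94, 5.78 and 3.60, and its summits held 60, 40, 39 and 30 reads. The local background stood at 3.09, 1.72, 1.03 and 1.38 times the genome level, so the region with the most reads had the lowest fold. This background is the larger of the genome level and the local estimates from the input, and it cannot fall below 1.00 times.

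A typical compact run was a pair of regions on a stretch of about 2 kb: 62 of the 77 held 2 regions and 15 held 3 or more. From the first start to the last end the 77 compact runs measured 2003 bp in the median (quartiles 1276 and 2594, range 345 to 4619). In 13 of them this extent was at most 1 kb and in 12 it was over 3 kb. The regions themselves covered a median of 45.8% of the stretch, 703 bp, and between the edges of neighbouring regions lay a median of 788 bp (range 90 to 3693, 95 gaps). The summits of neighbours did not point to a shared side: in 21 of these 95 gaps both summits lay past the middle of their region on the side of the neighbour, and in 15 on the far side.

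**Figure D2:**
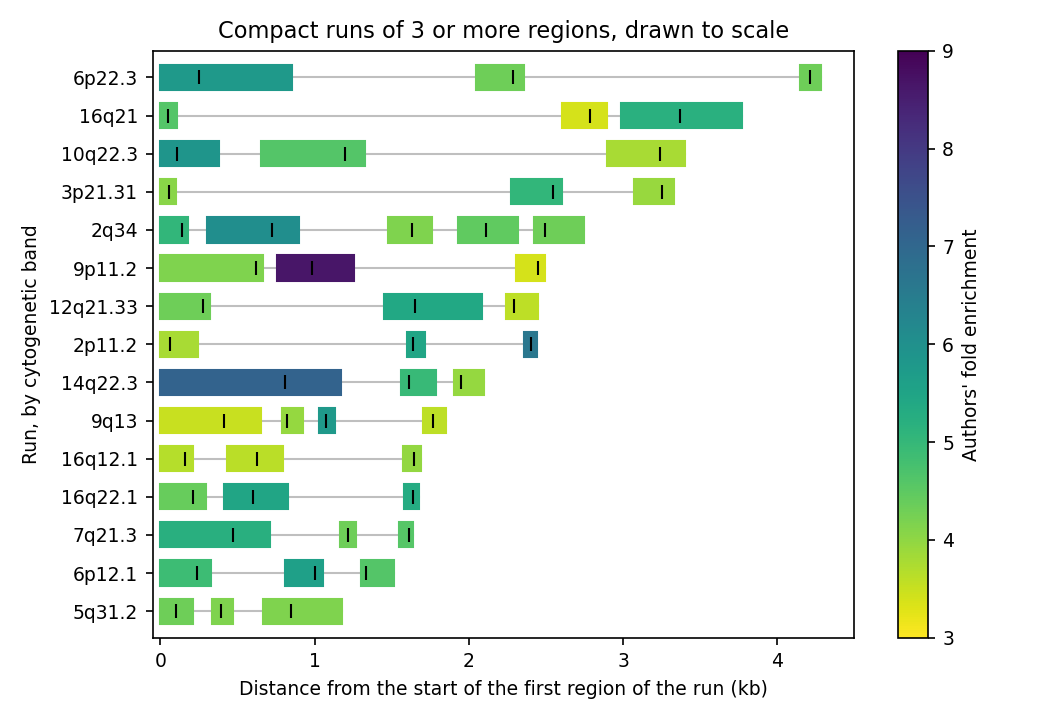
The 15 compact runs of 3 or more regions, drawn to scale by distance in kb from the start of the first region (x axis), 1 run per line named by its band. Boxes are regions coloured by the authors' fold, ticks are summits and grey lines are stretches with no listed region. The strongest region, at 9p11.2 with a fold of 8.67, lies between weaker neighbours, while at 14q22.3 the strongest region, with a fold of 7.11, is the first.

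The most enriched clustered regions all belonged to compact runs, as can be seen from the 10 with the highest folds. On chromosome 9, the region at 9p11.2 from 44235061 to 44235559 stood first, with a fold of 8.67 from 58 reads (interval 44.0 to 75.0). The neighbours on its sides had folds of 4.17 and 3.38. At 3q29 the region from 197898450 to 197898567 on chromosome 3 reached 7.94 from 53 reads, and it overlapped a DMSO region, as described below. At 12q24.11 the region from 111344390 to 111345418 on chromosome 12 reached 7.65 from 51 reads, and its neighbour 1.46 kb away had a fold of 5.48. The region at 14q22.3 (55955112 to 55956285 on chromosome 14) reached 7.11 from 61 reads, and the regions to its right had folds of 4.96 and 3.95. These leading regions differ in shape: the one at 3q29 was 118 bp wide, while those at 12q24.11 and 14q22.3 were 1029 and 1174 bp wide.

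The next 6 had folds between 6.64 and 6.20. The regions at 2q36.3 (chromosome 2, 230984276 to 230985559) and 3q26.1 (chromosome 3, 162025997 to 162027009) had identical folds of 6.64 with 44 reads each. Both were over 1 kb wide, at 1284 and 1013 bp, and their single neighbours had folds of 4.75 and 5.04. The region at 2p11.2 (chromosome 2, 87576893 to 87576975, fold 6.63) was 83 bp wide and the last of 3, after folds of 3.79 and 5.48. The region at 2q35 (chromosome 2, 216473895 to 216474716, fold 6.48) had a neighbour almost as strong, with a fold of 5.91 at a distance of 1.93 kb. The region at 5q31.1 (chromosome 5, 134263416 to 134263536) had a fold of 6.43 and also overlapped a DMSO region. That at 11q22.2 (chromosome 11, 102895386 to 102895635) had a fold of 6.20. At 11q22.2 the neighbour, 2.39 kb away, reached a fold of 3.60.

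Neighbours within a compact run seldom had read numbers with separate intervals. Across the 95 gaps of compact runs the absolute log2 ratio of the neighbours' folds had a median of 0.24, and at most 1.36. The Poisson intervals of the neighbours' reads were separate in 2 of the 95 gaps, at 4q35.2 (34 and 111 reads) and between the first regions at 9p11.2 (27 and 58 reads). In the 46 gaps over 5 kb of spaced and mixed runs the median was 0.13, and in none of the 46 were the intervals separate. Separate intervals are a stricter criterion than a direct comparison of 2 counts, so overlap does not show equal heights. No listed region held fewer than 27 reads, which narrows the range of heights that can be seen. In 44 of the 77 compact runs (57.1%) the region with the highest fold was also the widest, beside 17 of the 31 spaced runs (54.8%). Most of these runs are pairs, in which 1 of 2 regions is usually the widest. Among the 15 compact runs of 3 or more regions the highest fold stood at an inner position in 7. A run of 3 has 1 inner position.

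Clustered and solitary regions had the same median fold, 4.32, and differed in their upper values. The quartiles were 4.06 and 4.93 for the 269 clustered regions and 4.11 and 4.51 for the 542 solitary ones. A fold of at least 5 was reached by 63 clustered regions (23.4%, interval 18.5 to 28.9) and by 56 solitary regions (10.3%, interval 7.90 to 13.2), against 14.7% of all kept regions. Clustered regions had a median of 31 reads at the summit (range 27 to 111) and solitary regions 29 (range 27 to 85). Clustered regions measured 274 bp in the median and solitary ones 198 bp. Widths of at least 500 bp were found for 63 clustered regions (23.4%) and 70 solitary ones (12.9%).

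Most of these higher values belonged to compact and mixed runs. A fold of at least 5 was reached by 51 of the 172 regions of compact runs (29.7%, interval 22.9 to 37.1), by 9 of the 30 in mixed runs (30%, interval 14.7 to 49.4) and by 3 of the 67 in spaced runs (4.48%, interval 0.933 to 12.5). Counted by run, 40 of 77 compact, 8 of 10 mixed and 3 of 31 spaced runs held such a region. All 10 mixed runs held 3 regions, while 62 of the 77 compact runs held 2, so the counts by run are not for equal sizes. The median fold was 4.46 in compact runs, 4.25 in mixed runs and 4.18 in spaced runs. Median widths were 315, 308 and 206 bp in the same order, beside 198 bp for solitary regions. None of these differences has a replicate or a test behind it.

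**Figure D3:**
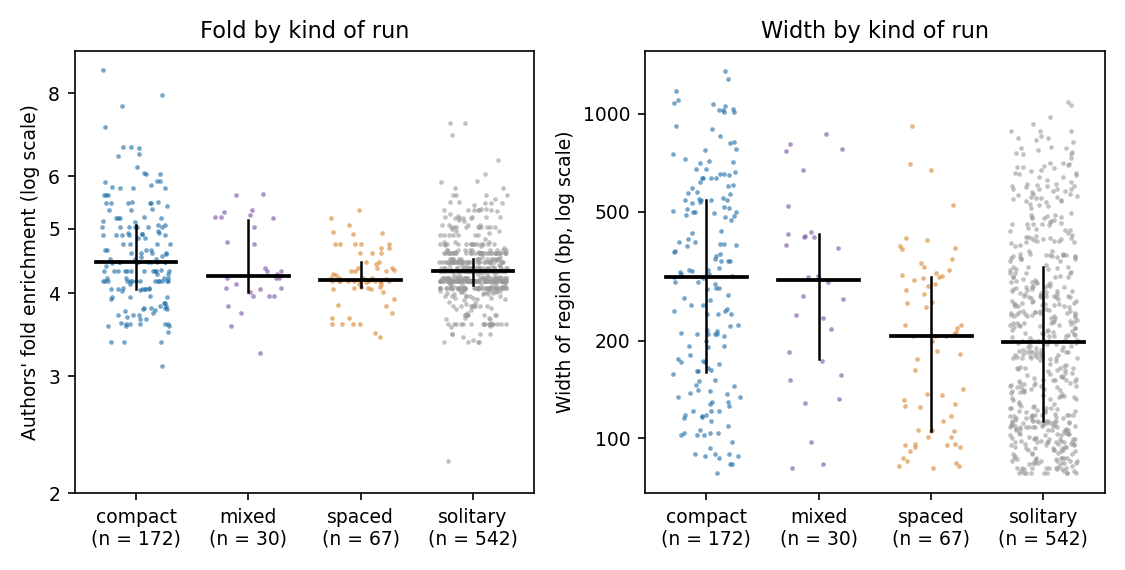
The authors' fold (left, log scale) and the width in bp (right, log scale) of each kept ATRi+APH region, by kind of run. Points are regions, horizontal lines medians and vertical lines quartiles. The points above a fold of 6 are in compact runs and among solitary regions, and the spaced runs have a median fold of 4.18 and a median width of 206 bp.

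The local background moved with some of these groups. It was at the genome level (within 1%) at 105 of the 269 clustered regions (39.0%) and at 247 of the 542 solitary ones (45.6%). It was at least 1.5 times the genome level at 23 clustered regions (8.55%, interval 5.50 to 12.6) and at 18 solitary ones (3.32%, interval 1.98 to 5.20). Within compact runs, the region with the highest fold (the first in a tie) was at such a background in 1 of 77 runs. Of the 95 other regions of these runs, 15 were. The background divides the fold, so a weaker neighbour can have as many reads as the strongest region, and the part of the background in these differences was not tested. The medians of reads were 34 at the strongest regions, which were picked for their fold, and 31 at their neighbours.

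The names of the regions carry a further measure of what lies between neighbours. They end in serial numbers that rise with position along each chromosome in all rows and run up to 10154, while the list holds 1133, or 11.2% as many. Numbers absent from the list are read here as regions of a longer call that are not listed, which no source used here states, and every count of unlisted numbers rests on that reading. In 88 of the 105 short gaps (83.8%, interval 75.3 to 90.3) the neighbours had consecutive numbers, with no unlisted number in between. The 46 longer gaps within runs did so in 7 cases (15.2%, interval 6.34 to 28.9), and the other 39 enclosed 72 unlisted numbers, up to 4 in a single gap. A shorter gap has less room for another region, so the shares cannot be told apart from the lengths that define the classes. The 5 regions at 2q34 carried 5 consecutive numbers, as did the 4 at 9q13 with theirs, whereas the spaced run of 3 at 5q23.2 (chromosome 5, 122061686 to 122119022, 57.3 kb, chosen after its values were seen) left out 6.

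Per length, the pooled density of unlisted numbers was higher in the classes of shorter gaps. Spaced gaps held 60.1 unlisted numbers per Mb, gaps of 50 to 100 kb 44.3, gaps of 100 to 500 kb 20.6, and gaps over 500 kb that do not cross a centromere 2.98. Short gaps held 148 per Mb, from 20 numbers in 0.135 Mb. Among the short gaps this order did not hold: those up to 0.5 kb held 111 per Mb, those of 0.5 to 1 kb 59.8, of 1 to 2 kb 163, of 2 to 3 kb 199 and of 3 to 5 kb 114, each from 10 numbers or fewer. The classes are defined by gap length, which also enters the density, so this order is a description of the list.

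**Figure D4:**
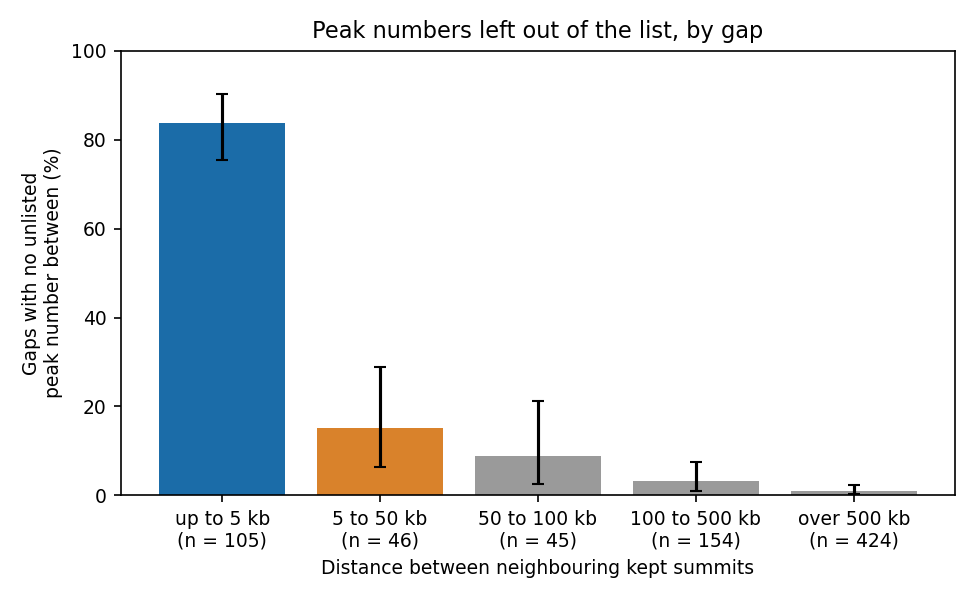
Share of gaps between neighbouring kept summits that enclose no unlisted peak number (y axis, percent), by distance between the summits (x axis). Bars are shares, and whiskers are 95% exact Clopper-Pearson intervals that cover counting error only. The share is 83.8% in the gaps of compact distance and 15.2% in those of 5 to 50 kb, and a shorter gap has less room for another region.

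Chromosomes differed in how many of their kept regions were clustered. The share was highest on chromosome 16, with 30 of 56 (53.6%, interval 39.7 to 67.0), and on chromosome 14, with 26 of 50 (52%, interval 37.4 to 66.3), against 33.2% over all 21 chromosomes. It was 30 of 73 on chromosome 7 (41.1%) and 25 of 56 on chromosome 3 (44.6%). The lowest shares among chromosomes with over 20 kept regions were 2 of 28 on chromosome 17 (7.14%, interval 0.877 to 23.5), 6 of 41 on chromosome 15 (14.6%, interval 5.57 to 29.2) and 6 of 33 on chromosome 4 (18.2%). Chromosomes 18 and 21 had none, of 9 and 3 kept regions. The number of kept regions per Mb was 0.620 on chromosome 16, 0.466 on chromosome 14, 0.459 on chromosome 7 and 0.400 on chromosome 15. It was 0.345 on chromosome 17, 0.283 on chromosome 3, 0.173 on chromosome 4, 0.115 on chromosome 18 and 0.0623 on chromosome 21. The part of density in the shares was not tested. Copy number of these chromosomes was not measured.

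Kinds of run also varied by chromosome. All 8 runs of chromosome 2, with 20 regions, were compact, as were the 3 of chromosome 9. Chromosome 16 had 6 compact, 4 spaced and 2 mixed runs, and all 12 lay on its long arm, as did 55 of its 56 kept regions. Chromosome 14 had 7 compact and 5 spaced runs, and chromosome 5 had 6 compact, 4 spaced and 2 mixed runs. On chromosome 3, 10 of the 12 runs lay on the short arm, which held 46 of its 56 kept regions.

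**Figure D5:**
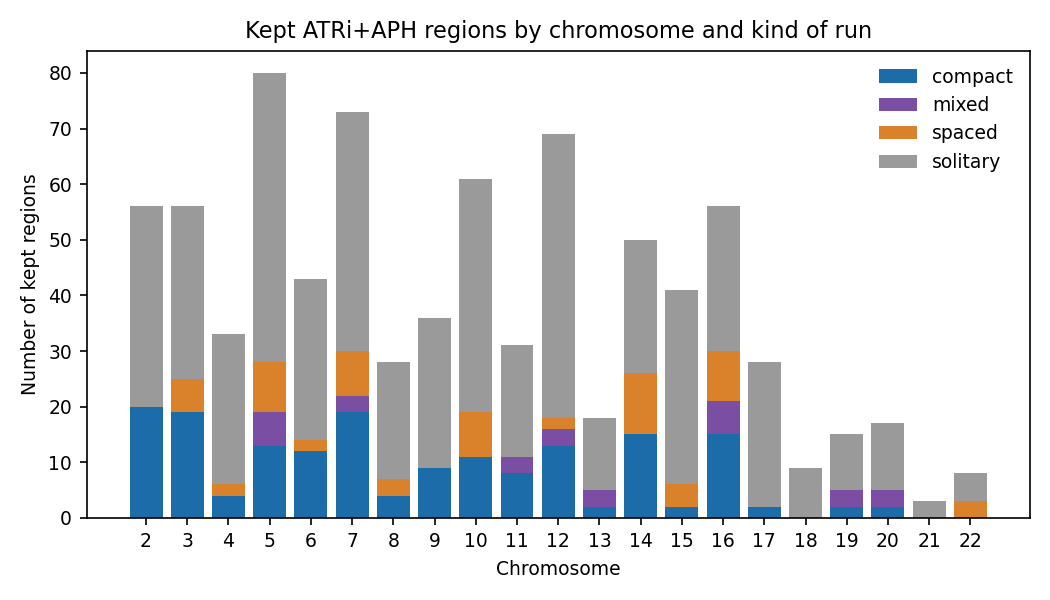
Number of kept ATRi+APH regions (y axis) on each of chromosomes 2 to 22 (x axis), stacked by kind of run. Clustered regions number 30 on chromosomes 7 and 16, 26 on chromosome 14 and 2 on chromosome 17.

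Runs were spread over many bands, and few bands held several. Of the 748 bands of chromosomes 2 to 22, 311 held a kept region, and 88 of these 311 held clustered regions. A single run was found in 69 of the 88, and 2 or more in 19. Of the 99 pairs of neighbouring runs on a chromosome, 4 were at most 200 kb apart and 18 at most 1 Mb, and the median distance was 3.96 Mb. Band 14q12 came first with 13 clustered regions in 6 runs, 3 of them compact, and it also held the most kept regions of any band, 22. The 13 clustered regions stretched over 3.55 Mb, and the band's runs at 29722780 to 29723976 and 29778956 to 29811258 were only 55.2 kb apart. The folds in 14q12 reached 5.19.

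Next came 16q12.1 with 10 clustered of 16 kept regions, in 4 runs within 1.41 Mb, at a median background of 1.33 times the genome level. Bands 7q21.11 and 7q21.3 held 8 each, of 17 and 15 kept regions, in 4 and 3 runs. In 7q21.11 the folds did not pass 4.26, and 3 of the 4 runs were spaced. Bands 16q24.2 and 5q35.3 held 7 each in 3 runs, of 12 and 10 kept regions, and 10q21.2 held 6 of 8 in 3 runs with a highest fold of 5.77. Band 16q24.2 is 1.6 Mb long and was the densest of these, with 4.38 clustered regions per Mb and a background at the genome level, 1.00 times in the median. Bands 10q22.3, 12q21.33 and 2p11.2, with 5 clustered regions in 2 runs each and 10, 14 and 6 kept regions, complete the first 10, and other bands also held 5.

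The stained bands of the chromosomes and their gene density were set beside the kinds of run. Pale bands (G-negative, rich in genes) held 120 of the 269 clustered regions (44.6%, interval 38.6 to 50.8) and 49.8% of the solitary ones, on 43.9% of the length outside centromeric bands. The darkest G-positive bands, which are gene-poor and replicate late as a rule, held 55 clustered regions (20.4%, interval 15.8 to 25.8) and 14.8% of the solitary ones, on 16.6% of that length. Within spaced runs the pale bands held 21 of 67 regions (31.3%) and the darkest 19 (28.4%). Compact runs had 49.4% of their regions in pale and 20.9% in the darkest bands. Mixed runs had 14 of 30 in pale bands (46.7%) and none of 30 in the darkest. These 30 regions come from only 10 runs, and regions of a run mostly share a band, so they are not independent. Clustered and solitary regions lay in bands with medians of 5.69 and 5.42 protein-coding genes per Mb, and the medians by kind of run were 5.29 for compact, 4.29 for spaced and 7.89 for mixed runs.

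Few clustered regions coincided with break regions of DMSO cells. Of the 269, 8 (2.97%, interval 1.29 to 5.78) overlapped a DMSO region by at least 1 bp, against 7 of the 542 solitary regions (1.29%, interval 0.521 to 2.64) and 1.85% of all kept regions. The median distance from a clustered region to the nearest DMSO region was 4544 kb, and from a solitary one 5466 kb. The DMSO list is shorter, with 381 regions, and came from a separate call, so no overlap does not mean that no reads lay there.

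The 8 overlaps came from 4 runs, and each met a DMSO region of its own. At 3q29 both regions of a compact run overlapped, the first with a fold of 7.94 (11.3 at its DMSO region, 197898442 to 197898571) and the second, at 197900269 to 197900351, with a fold of 4.90 (22.7 at its DMSO region). At 4q35.2 (chromosome 4) the regions at 191040737 to 191040943 and 191043866 to 191044267 had folds of 3.38 and 4.92, beside DMSO folds of 23.9 and 24.4. The second of these held 111 reads (interval 91.3 to 134), the most of any clustered region, at 4.13 times the genome background. The folds of the lists are not on a common scale.

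The other 2 runs lay at 5q31.1 and 11p15.5. At 5q31.1 (chromosome 5) both regions overlapped, 134262740 to 134262828 with a fold of 3.11 and 134263416 to 134263536 with a fold of 6.43, and the DMSO folds were 7.41 and 13.4. At 11p15.5 (chromosome 11) 2 of the 3 regions overlapped, 175521 to 175603 with a fold of 3.57 and 189600 to 190367 with a fold of 5.31, and the DMSO folds were 7.03 and 6.85. The last region there, 190594 to 190828 with a fold of 3.25, lay 0.437 kb from a DMSO region. The runs at 3q29, 4q35.2 and 11p15.5 lay between 110 and 190 kb from a chromosome end, just beyond the limit of 100 kb, while that at 5q31.1 lay 46652 kb inside the arm.

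Among DMSO regions the same rule also found neighbours. Inside the same limits there were 183 DMSO regions, of which 61 had another within 50 kb, in 13 runs, 8 of them compact. In the ATRi+APH list the rule took 269 of 811 regions (33.2%), in 118 runs, 77 of them compact. Neighbours within 50 kb were therefore not particular to the ATRi+APH list, and no difference between the lists was tested.

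Bands of genes known for fragility, repeats or the replication stress response were compared by band name only, since the gene positions are of another genome build. The gene lists were chosen with earlier results of these data known, so their shares are descriptions only. The clustered regions came from 11 runs for fragile sites, 7 for repeat expansion, 5 for replication stress and 4 for tandem families. Common fragile site genes are unusually long, and chromosomes break in them when replication is mildly slowed. Of the 30 bands with such a gene, 8 held clustered regions, 26 in all (9.67% of clustered, 6.46% of solitary regions, on 5.74% of the length). The most were in 7q21.11 with MAGI2, a synaptic scaffold gene, with 8, and in 2q34 with ERBB4, a receptor tyrosine kinase gene, where the 5 are the run described above. Band 13q13.3 with NBEA held 3, and those of ANKS1B, PRKG1, PTPRN2, RORA and THSD7A held 2 each. A band is several Mb long, so none of these regions is placed in the gene.

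Repeat expansion disease genes carry short repeats that lengthen in neurological disease. They lie in 28 bands, of which 4 held 18 clustered regions (6.69% of clustered, 4.98% of solitary regions, on 4.67% of the length). JPH3 (16q24.2, a junctophilin gene) had 7 in its band and ATXN1 (6p22.3) had 5, while ATXN10 (22q13.31) and BEAN1 (16q21) had 3 each. The highest fold among them was 5.77 in 6p22.3.

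Replication stress response genes lie in 27 bands of these chromosomes, of which 4 held 11 clustered regions (4.09% of clustered and 4.06% of solitary regions, on 4.51% of the length). They were the bands of ATRIP, the partner that brings ATR to single-stranded DNA (3p21.31, 5 regions), SMARCAL1, a fork-remodelling helicase (2q35, 2 regions with folds of 5.91 and 6.48), RPA3, a subunit of the single-strand binding complex (7p21.3, the same 2 regions as for THSD7A), and the RecQ helicase WRN (8p12, 2 regions). Tandem gene families lie in 26 bands, of which 4 held 9 clustered regions (3.35% of clustered, 4.43% of solitary regions, on 3.69% of the length). Among these were 11p15.5 with KRTAP5-1 and MUC2, 4q13.3 with CXCL8, and 2q31.1 with HOXD1. Over these lists the median fold of the clustered regions was 4.29, 4.32, 4.64 and 4.75 in the order given, beside 4.32 for all clustered regions.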

How the data were processed

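BrITL pull-down and input libraries of MDA-MB-231 cells were sequenced by the submitters, who deposited 1 list of enriched regions per condition. The submitters' processing notes list MACS2 2.1.0, STAR 2.5.2a, Picard 1.141, bcl2fastq 2.17.1.14 and SAMtools 0.1.19, with hg19 and mm10 as builds. Their settings and order are not stated there. The peak names state that pooled pull-down libraries were called against the input of the condition. The deposited fold is the ratio of pileup to local background at the summit, with 1 added to each in the formula used here. Of each region's significance, the authors deposited −log10 p-values and −log10 q-values. The deposited score is a whole number made from the −log10 p and was not used. The deposited summit offset (other unit, bases from the start) gave the summit position.

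Summit read numbers were recovered by solving the fold and p-value formulas of MACS2 together. All rows of the ATRi+APH list came out whole (100%, tolerance 0.02 reads), with pull-down reads scaled by 0.567 and a genome background of 2.91 scaled or 5.13 unscaled reads. On 992 rows simulated with the same formulas 100% of the reads were returned, which checks the solving and not whether the formulas hold for the list. Summits of the list held 27 to 140 reads, and library totals are not in the lists. PCR copies are not independent molecules, and intervals cover counting error only. The labels do not say whether replicates are separate cultures.

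The rule on ends, centromeres and distance was applied to hg19 bands from circlize 0.4.16 (R 4.3.3), with python 3.11.15, scipy 1.17.1 and pandas 2.3.3. Genes came from RefSeq's table of GRCh38.p14 and were joined by band name (862 of 862 names shared). Region sequences are not used here. No test was run, because each condition is 1 pooled list and regions are not replicates. The regions and gene lists were chosen with earlier results of these data known. Named are runs of 5 or more regions, the 10 highest folds, all overlaps with DMSO regions, 3 regions at each side of the 50 kb limit, the 10 bands with the most clustered regions, and listed genes whose band held one, of which 1 band is not reported here. Other runs were named after their values were seen.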

Additional observations from a re-analysis of the deposited data

How the results depend on the processing

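Of 91 values recomputed under another setting, 65 stayed within 1.5 times the main count or within the 95% interval of the main value. Counting regions whose summits lie within 10 kb once left 84 clustered regions in 40 runs, with a median span of 28.7 kb, a median gap of 26.97 kb, a median width of 211 bp and a background of 1.03 times the genome level, in place of 269 regions, 118 runs, 2.04 kb, 1.72 kb and 274 bp. Within 5 kb, a setting added after the distances were seen, it left 87 regions, 41 runs, 28.0 kb, 26.0 kb and 209 bp, beside 619 solitary regions. Both settings merge compact runs by construction. Keeping regions with a −log10 q at or above the median left 112 regions in 53 runs (fewer regions enter), with a span of 1.71 kb, a width of 320.5 bp, a background of 1.014 times, and median folds of 4.85 for clustered and 4.61 for solitary regions. At genome background only there were 73 regions in 34 runs, with a gap of 1.35 kb, a background of 1 by construction, and folds of 4.75 and 4.46. The equal median folds of 4.32 thus became a higher clustered median under both filters, and also when joining within 25 kb (4.36 against 4.28) or 100 kb (4.32 against 4.27). They became a lower one, 4.22 against 4.32, when counting once within 10 or 5 kb. The order of these medians therefore depends on the setting, and the cause was not tested. Joining within 100 kb gave a span of 13.0 kb and a gap of 2.504 kb. Joining within 25 kb, or leaving out chromosome 7 (tied with 16 for the most) or, added later, chromosome 16, regions over DMSO regions, or regions within 5 Mb of a centromere moved none of these values that far. No paired analysis was possible because each condition is 1 pooled list, and for the same reason no replicate could be left out. Depth limits heights: 27 reads carry a Poisson interval of 17.8 to 39.3.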

Other observations

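Outside the limits on chromosome ends and centromeres, 66 further ATRi+APH regions lay on chromosomes 2 to 22, and 35 of these had another listed summit within 50 kb. Adding them back would bring 0 of the 542 solitary regions into a run. On chromosome 1, 126 regions of the list had another listed summit within 50 kb. This number counts listed rather than kept regions and is not a share, so it cannot be set beside the clustered share of chromosomes 2 to 22.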
